A study of Nicotiana with 12 samples.

Results

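The comparison described here is that of leaves from transgenic PSARK::IPT tobacco under a long water deficit with leaves of the same genotype that were fully watered. Its members were set by their labels: the 3 arrays of PSARK::IPT leaves given 300 mL of water per pot and day (stressed) and the 3 given 1000 mL (watered). They are 6 of the 12 arrays of the study, and earlier results of these data were known when they were chosen. All 10101 of 10209 probe sets that are not controls were compared. The plants, labelled as Nicotiana without a species, were moved to a greenhouse at 3 weeks of age, kept on their water supply for 45 days and sampled at about 10 weeks. Each array stands for 1 biological replicate and was made from 6 ug of total leaf RNA. The other 6 arrays hold wild-type (WT) leaves under the same 2 supplies, 3 arrays each, and are used here only to test where the PSARK::IPT response differed.

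IPT encodes isopentenyltransferase, the enzyme that starts the synthesis of cytokinins, plant hormones that delay the ageing of leaves. The SARK promoter belongs to a senescence-associated receptor kinase and is switched on in maturing and ageing leaves, so the transgene is meant to make cytokinin when a leaf would begin to senesce, which drought hastens. In plants a long water shortage typically slows growth, lowers photosynthesis and sets off leaf senescence. The labels name neither the number of transformed lines nor a control line with an empty construct. No probe set was named for IPT, and no named probe set belonged to cytokinin synthesis, breakdown or signalling, so the transgene and the hormone response could not be followed. RNA from tobacco was read with probes made for tomato, and 909 probe sets carried a tomato gene symbol, for 802 genes.

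The arrays had leaf character in their photosynthesis genes. All 3 light-harvesting genes and all 6 photosystem and electron transport genes measured lay above the array medians of 3.42 to 3.45 (log2 RMA values), while 3 of 9 root markers and 2 of 9 fruit-ripening markers did. So did 11 of 16 markers of dividing cells and 3 of 4 epidermis and trichome markers. The mean level of the photosystem list was 10.24 to 10.38 on the watered and 10.29 to 10.30 on the stressed arrays, and that of the light-harvesting list was 8.40 to 8.46 and 8.45 to 8.62. Replicate IPT arrays correlated with r of 0.989 to 0.992 over all probe sets. The labelling of the RNA differed with water supply: the poly-A controls, RNAs added to the sample before labelling, have probe sets at both ends, and their 3'/5' bias (mean log2 of the 3' probe sets minus that of the 5' ones) was 2.81, 2.35 and 3.22 on the watered and 3.69, 3.48 and 3.61 on the stressed arrays. The groups did not overlap in it, with a mean difference of 0.80 (exact two-sided permutation p = 0.1, the smallest that 3 against 3 arrays allow), so its part and that of water supply cannot be told apart on these 6 arrays alone. The bias of the leaves' own GAPDH, EF1a and ubiquitin was greater under stress by 0.56, 0.74 and 0.32 (exact p = 0.1 each), and that of actin by 0.81 (exact p = 0.3). In WT leaves the poly-A bias was 2.23 greater under stress.

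Stressed IPT leaves differed from watered ones in few probe sets. Of the 10101 tested, 137 passed at an adjusted p under 0.05 (1.36%; limma, Benjamini-Hochberg adjustment), of which 60 rose (0.594%) and 77 fell (0.762%). The median size of the rises was a log2 change of 0.78 and of the falls -0.83, and 45 probe sets changed at least 2-fold, 21 up and 24 down. Across all probe sets the median change was 0.00. Of the 137, 125 were brighter than the median probe set. Among the 909 named probe sets 11 passed (1.21%), 8 of them higher and 3 lower under stress. In all 11 the 3 stressed arrays lay wholly on 1 side of the 3 watered arrays, as they did in 22.6% of all probe sets. The RNA came from whole leaves, so fewer cells of a type and less RNA per cell cannot be told apart in any of these values.

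**Figure D1:**
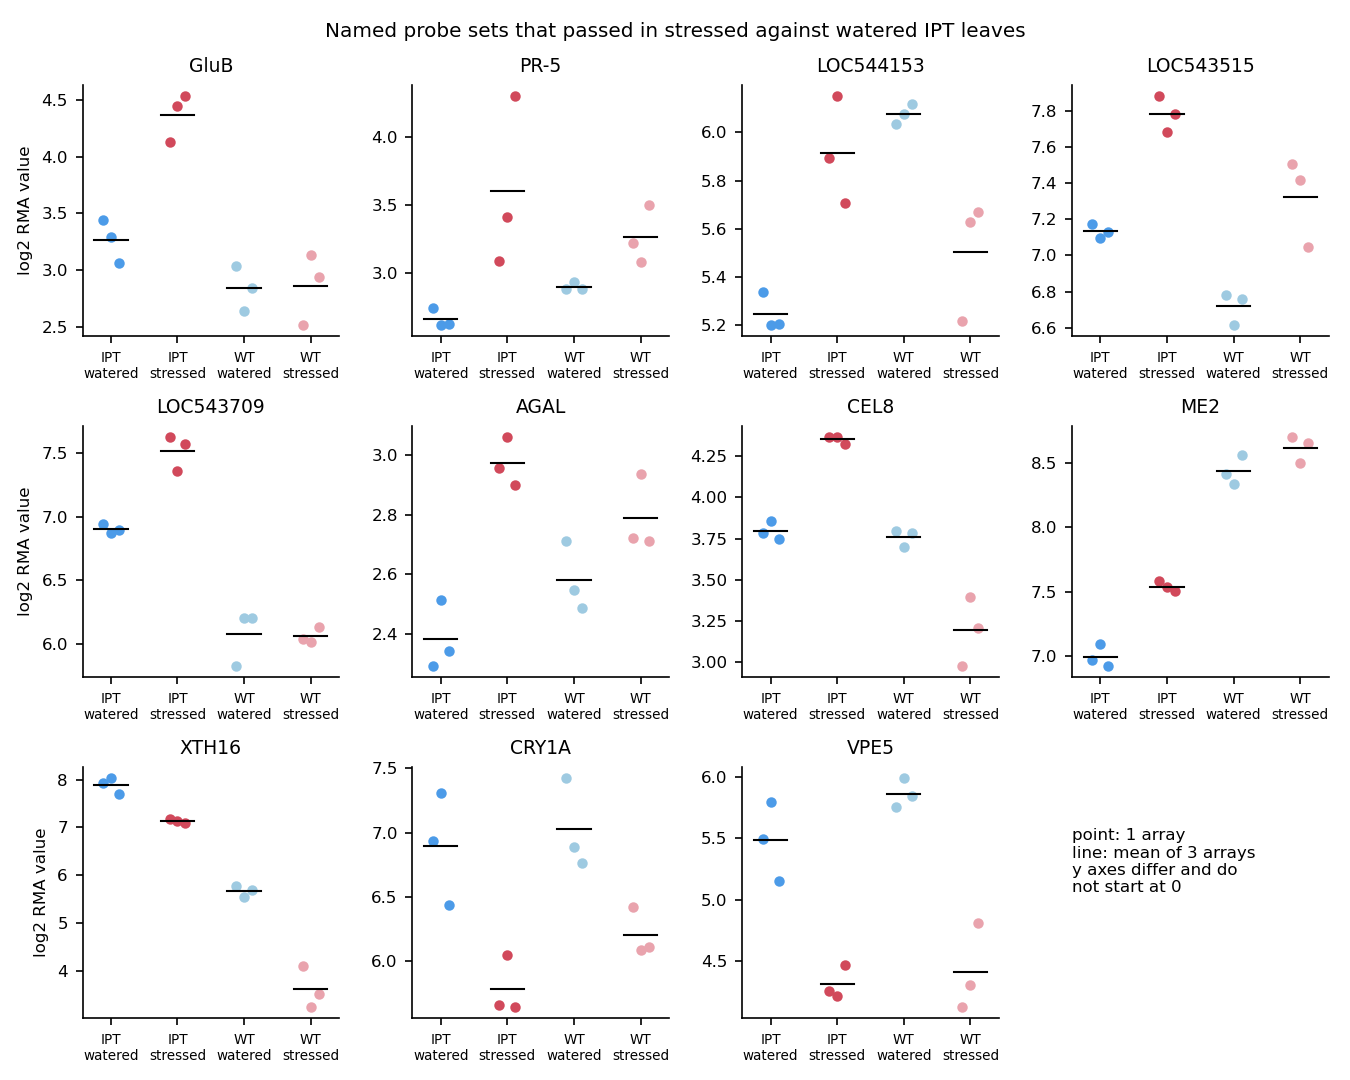
Log2 RMA value of each of the 11 named probe sets that passed in stressed against watered IPT leaves, on the 3 arrays of each group (points) with the group mean (line), and in WT leaves beside them. In IPT leaves no stressed point overlaps a watered one in any panel, while CEL8 and LOC544153 run the opposite way in WT.

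The rise with the smallest adjusted p among named genes was in a defence protein. GluB, a basic beta-1,3-glucanase that cuts the wall glucans of fungi, read 3.44, 3.29 and 3.06 on the watered arrays and 4.13, 4.44 and 4.53 on the stressed ones. All stressed values lay above all watered ones, and the gene rose 2.15-fold (log2 change 1.10, SE 0.17, limma adjusted p = 0.00171). PR-5, a thaumatin-like pathogenesis-related protein of the osmotin family, read 2.73, 2.61 and 2.62 on the watered arrays and 3.09, 3.41 and 4.30 on the stressed ones. It rose 1.92-fold (log2 0.94, SE 0.22, adjusted p = 0.0424), with a spread among stressed arrays (SD 0.63) far above that among watered ones (SD 0.07). Both genes started at or below the array medians. The call of GluB held in all 12 fits lacking 1 array and in the fit that takes the poly-A 3'/5' bias as a covariate (log2 1.01, adjusted p = 0.0428). That of PR-5 held in 3 of those 12, and was lost when only the 6 IPT arrays were fitted (adjusted p = 0.0900) and with the covariate (log2 1.08, adjusted p = 0.114). Because the bias differed with water supply, this covariate can lower the precision of the change. A call can then be lost without a smaller change.

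The other members of the pathogenesis-related list did not pass. Of its 13 members, 2 rose and 0 fell, and 11 of 13 had a change above 0, with a median log2 change of 0.12 against 0.05 over all 802 named genes. Of those 802 genes, 8 rose and 1 fell. The list of disease resistance and defence signalling genes, which holds receptors and kinases that act before such proteins, had 0 of 19 pass and a median of -0.02. PTI4, an ethylene-response factor that takes part in defence, was its member with the smallest p and had a log2 change of 0.42 (SE 0.16, adjusted p = 0.247), with overlapping groups. Eix1, a receptor-like protein for a fungal xylanase, had 0.33 (SE 0.13, adjusted p = 0.254).

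Among enzymes of the cell wall, 2 of 44 rose and 0 fell, beside 8 of 802 named genes that rose and 1 that fell, and the list's median change was 0.05. CEL8, an endo-beta-1,4-glucanase of the family that loosens cellulose-containing walls, read 3.78, 3.86 and 3.75 on the watered arrays and 4.37, 4.36 and 4.33 on the stressed ones. It rose 1.47-fold (log2 0.56, SE 0.12, adjusted p = 0.0257). AGAL, an alpha-galactosidase, which frees galactose from side chains, read 2.29, 2.51 and 2.34 and then 2.96, 3.06 and 2.90, a rise of 1.51-fold (log2 0.59, SE 0.12, adjusted p = 0.0175). Neither gene had overlapping groups, and the stressed arrays of CEL8 lay closest together. PMEU1, a pectin methylesterase, missed the threshold with a log2 change of 0.58 (SE 0.15, adjusted p = 0.0645). AGAL lost its call with the covariate (log2 0.54, adjusted p = 0.137) and in 4 of the 12 fits without 1 array. CEL8 lost its call with the covariate (log2 0.46, adjusted p = 0.195) and in each of the 6 fits without 1 IPT array.

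ME2, a malic enzyme, which turns malate into pyruvate, was the member that rose in the list of organic acid and nitrogen metabolism. It read 6.97, 7.09 and 6.93 on the watered arrays and 7.58, 7.54 and 7.50 on the stressed ones. The gap between the groups was wider than the range within either, and the gene rose 1.46-fold (log2 0.54, SE 0.11, adjusted p = 0.0217). With the labelling covariate the change was 0.64 (adjusted p = 0.0411). It lost its call in each of the 6 fits without 1 IPT array. The other 11 members did not pass. They include gad2, a glutamate decarboxylase (log2 -0.34, SE 0.19, adjusted p = 0.447).

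Of the genes known here only by a locus symbol, 3 further ones rose. LOC544153 read 5.34, 5.20 and 5.21 on the watered and 5.89, 6.15 and 5.71 on the stressed arrays (log2 0.67, SE 0.14, adjusted p = 0.0240). LOC543515 had a log2 change of 0.65 (SE 0.13, adjusted p = 0.0162) and LOC543709 one of 0.62 (SE 0.13, adjusted p = 0.0203). None of the 3 overlapped between the groups, and none passed with the labelling covariate. In that fit their log2 changes were 0.63, 0.55 and 0.63 in the same order (limma adjusted p = 0.168, 0.168 and 0.112). Without 1 array LOC544153 and LOC543709 passed in 7 of 12 fits each and LOC543515 in 8. Dea1 (log2 0.65, adjusted p = 0.105) and LOC544282 (log2 0.58, adjusted p = 0.154), among the 10 largest named increases, did not pass.

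The 3 named probe sets that fell belonged to a protease, a light receptor and a wall enzyme. VPE5, a vacuolar processing enzyme, one of the cysteine proteases that activate other proteins in the vacuole, read 5.50, 5.80 and 5.15 on the watered arrays and 4.25, 4.21 and 4.46 on the stressed ones. It fell 2.26-fold (log2 -1.18, SE 0.18, adjusted p = 0.00171), and no stressed array reached the lowest watered one. CRY1A, the blue-light receptor cryptochrome 1, read 6.94, 7.31 and 6.44 and then 5.66, 6.05 and 5.64, a fall of log2 -1.11 (SE 0.21, adjusted p = 0.0110). XTH16, a xyloglucan endotransglucosylase/hydrolase, which cuts and rejoins wall xyloglucan, read 7.93, 8.04 and 7.71 and then 7.17, 7.14 and 7.09, a fall of -0.76 (SE 0.17, adjusted p = 0.0386). The stressed arrays of XTH16 lay close together and all below the watered ones.

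These falls passed in 1 probe set of each gene. A second one of XTH16 (-0.40) also had all stressed arrays below the watered ones, as in 11.4% of all probe sets, without passing. The other probe sets of VPE5 gave log2 changes of 0.10 and 0.14 (adjusted p = 0.785 and 0.739), the other one of CRY1A gave 0.13 (adjusted p = 0.741), and the others of XTH16 gave -0.40 and 0.25 (adjusted p = 0.196 and 0.437). With 1 probe set per gene, that of the highest mean, 8 genes rose and 1, CRY1A, fell. With the labelling covariate the values were -0.95 for VPE5 (adjusted p = 0.0511), -0.87 for CRY1A (adjusted p = 0.168) and -0.50 for XTH16 (adjusted p = 0.304). Of all 11 named calls, 2 (VPE5 and GluB) held in all 12 fits without 1 array.

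Among the 3 watered IPT arrays, which share a genotype and a water supply, 53 of the 77 probe sets that fell (68.8%) read lower as the poly-A bias went from 2.35 to 2.81 to 3.22. That order was found in 22.9% of all probe sets with a lower value under stress. Of the 60 rises, 15 (25%) read higher in the same order of arrays, as did 19.6% of all probe sets with a higher value under stress. The mean level of the 77 was 6.55, 6.33 and 6.12 on those arrays in that order and 5.33 to 5.40 on the stressed arrays. The mean level of the 60 was 5.86, 5.80 and 5.85 and then 6.76 to 6.84. Once the bias entered the fit as a covariate, 56 probe sets passed, 35 higher and 21 lower, and 30 of the 60 rises but 20 of the 77 falls kept their calls. All 137 kept their sign. The order within watered IPT rests on 3 arrays and on probe sets that can vary together. Any other difference between those arrays in the same order would look alike, and the part of labelling in the falls was not tested.

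**Figure D2:**
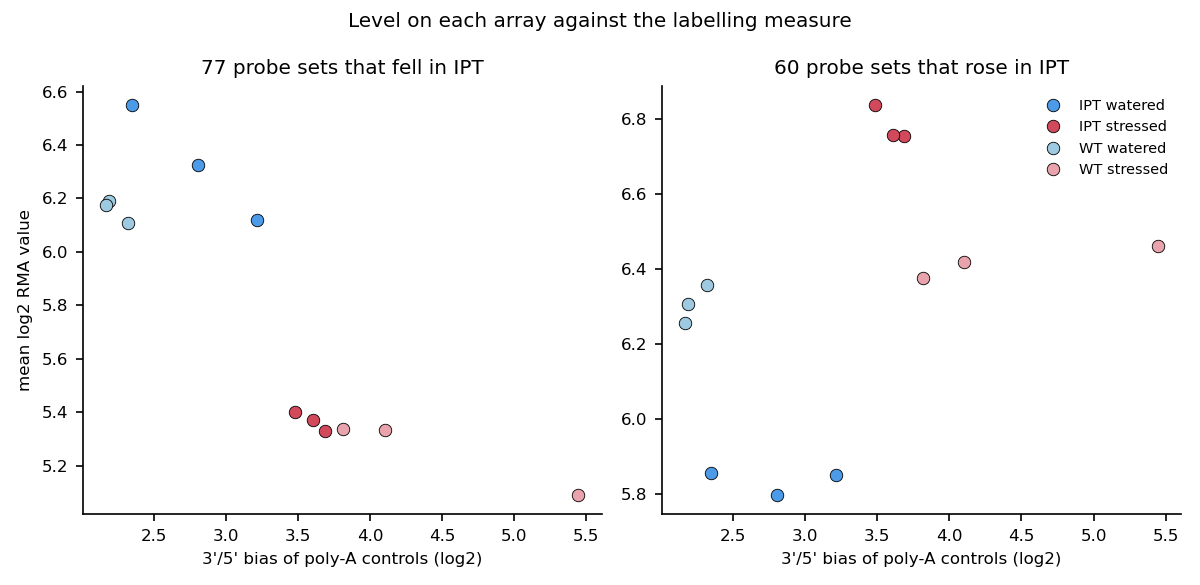
Mean log2 RMA value of the 77 probe sets that fell in IPT leaves (left) and of the 60 that rose (right) on each of the 12 arrays, against the 3'/5' bias of the poly-A controls (log2). The falls step down with that bias within watered IPT, from 6.55 at 2.35 to 6.12 at 3.22, and the rises stay between 5.80 and 5.86 there. The probe sets were chosen by the gap between the stressed and watered IPT points.

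The changes with the smallest p were in probe sets that carry no gene symbol. LesAffx.65124.1.S1_at read 8.36, 8.38 and 8.59 on the watered and 10.17, 10.21 and 10.21 on the stressed arrays, and rose by log2 1.75 (SE 0.11, adjusted p = 3.43e-07). LesAffx.11323.1.A1_at rose from 6.57, 6.77 and 6.93 to 8.81, 8.87 and 8.95 (log2 2.12, SE 0.14, adjusted p = 3.43e-07). Both were more than 1 unit clear of their watered values. Les.2183.3.S1_at fell from 11.22, 11.05 and 10.41 to 8.27, 8.53 and 8.42 (log2 -2.49, SE 0.22, adjusted p = 7.16e-06). Les.3067.2.S1_at fell from 10.31, 10.51 and 9.98 to 8.33, 8.35 and 8.44 (log2 -1.89, SE 0.18, adjusted p = 2.09e-05). All 4 passed in every alternative run, the labelling covariate included. They were chosen by the smallest p, so that was largely given by the choice. The 137 probe sets fall into 124 probe set ID numbers, so some of them share a number. Those may read the same transcript, which was not tested.

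Photosynthesis genes showed no call in stressed IPT leaves. Over all 802 named genes 8 rose and 1 fell, so a count of 0 in lists of these sizes, here and below, is near that share. In the light-harvesting list 0 of 3 passed, with a median change of 0.09, and in the photosystem and electron transport list 0 of 6, with a median of -0.02 and a range of -0.05 to 0.06. CAB4, a chlorophyll a/b-binding protein, read 10.49, 10.46 and 10.47 on the watered and 10.64, 10.51 and 10.53 on the stressed arrays (log2 0.09, SE 0.10, adjusted p = 0.782). Its stressed values lay just above the watered ones, as in 11.2% of all probe sets. CAB5 had 0.24 (SE 0.11, adjusted p = 0.348), PsbQ, a protein of the oxygen-evolving complex, 0.06 (SE 0.10, adjusted p = 0.853), and PSBR, another photosystem II protein, -0.05 (SE 0.10, adjusted p = 0.874). In the list of light receptors and light signalling, CRY1A fell and the other 11 members did not pass.

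Of 10 senescence and protease genes, taken each by its brightest probe set, 0 passed, and 7 had a change above 0. For VPE5 that is a probe set other than the one that fell. The subtilisin-like proteases sbt4a (log2 0.45, SE 0.12, adjusted p = 0.0924) and SBT2 (0.33, SE 0.12, adjusted p = 0.209) led the list by p. Each had stressed arrays above watered ones, as in 11.2% of all probe sets. In sucrose, starch and sugar metabolism 0 of 24 passed, with a median of -0.04. SNF1, the kinase that senses low energy, had 0.33 (SE 0.11, adjusted p = 0.174), and AGP-1 had -0.42 (SE 0.17, adjusted p = 0.250). AGP-1 was placed in this list by its symbol alone, and which protein it names was not checked. The similar symbols AgpL1, AGPL3 and AGP-S2 had changes of 0.03, -0.08 and -0.04, none of which passed.

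The genes that protect cells from drying showed no called change. That lies near the share of all 802 named genes, of which 8 rose and 1 fell. In the list of dehydration-protective and lipid transfer proteins 0 of 6 passed, and 0 of 9 heat-shock proteins and chaperones, 0 of 16 antioxidant enzymes and 0 of 13 genes of carotenoid and abscisic acid synthesis did. LEA14, a late-embryogenesis-abundant protein, had a change of -0.19 (SE 0.16, adjusted p = 0.637) and LE16, a lipid transfer protein, -0.31 (SE 0.21, adjusted p = 0.540). The ascorbate-recycling enzymes MDHAR (-0.54, SE 0.23, adjusted p = 0.307) and DHAR1 (-0.33, SE 0.11, adjusted p = 0.186) had all stressed arrays below the watered ones, as in 11.4% of all probe sets, without passing. Another probe set of DHAR1 gave -0.14 (limma adjusted p = 0.750), with overlapping groups. With the labelling covariate the MDHAR change was 0.01 (adjusted p = 0.990). Of 14 stress-related transcription factors 0 passed. DREB3, named for the drought-responsive DREB family, had -0.33 (SE 0.11, adjusted p = 0.171), and AREB1, which acts in abscisic acid signalling, -0.32 (SE 0.14, adjusted p = 0.330). Of 6 polyamine and proline synthesis genes 0 passed, and the list had the lowest median of the 22 lists, -0.18. PRO1, of proline synthesis, had -0.52 (SE 0.16, adjusted p = 0.129).

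Among hormone lists, 0 of 44 ethylene, 0 of 14 jasmonate and oxylipin and 0 of 12 gibberellin and auxin genes passed. These counts too lie near the share of all named genes. CTR3, of the CTR kinases that hold ethylene signalling back, had 0.56 (SE 0.17, adjusted p = 0.137), and ACS8, an ACC synthase, 0.42 (SE 0.13, adjusted p = 0.144). OPR1, an oxophytodienoate reductase, had 0.52 (SE 0.15, adjusted p = 0.116) and GA3ox1, which makes active gibberellin, 0.50 (SE 0.14, adjusted p = 0.102). In each of these 4 the stressed arrays lay above the watered ones, as in 11.2% of all probe sets. Markers of dividing cells had the highest median of the 22 lists, 0.14. Of these markers, 12 of 16 lay above 0, and 0 passed. Their mean level was 3.91 to 3.94 on the watered arrays, and the stressed arrays all lay above that range, up to 4.12. The part of such cells in the changes described was not tested. CDKC had 0.48 (SE 0.16, adjusted p = 0.158) and the cyclin CycA1 0.35 (SE 0.13, adjusted p = 0.213). For comparison, 484 of the 802 named genes lay above 0. The root, fruit-ripening and epidermis lists had 0 of 9, 0 of 9 and 0 of 4 pass, with medians of 0.01, 0.02 and 0.05.

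**Figure D3:**
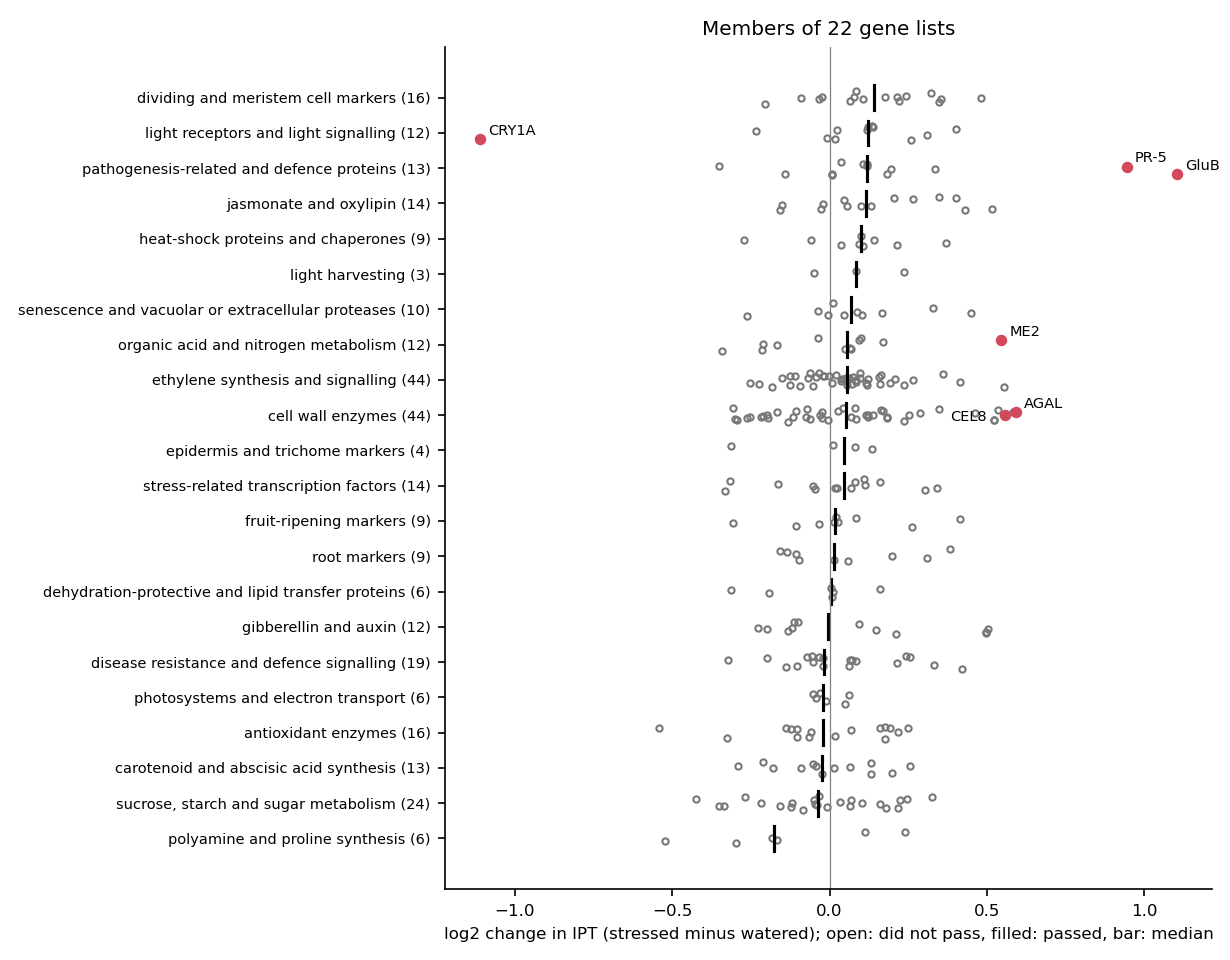
Log2 change in IPT leaves (stressed minus watered) of each member of the 22 gene lists with at least 3 members, 1 point per gene, with the number of members in brackets and the list median as a bar. Filled points are the members that passed (GluB, PR-5, AGAL, CEL8, ME2 and CRY1A). The list medians lie between -0.18 and 0.14.

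Whether the response of IPT leaves differed from that of WT leaves was tested as the difference of the stress effects in the same fit, with log2 values of IPT minus WT. Of 10101 probe sets 192 passed this test (1.9%), 111 higher in IPT (1.1%) and 81 lower (0.802%). Under stress alone WT leaves had 1142 probe sets pass (11.3%), 569 higher (5.63%) and 573 lower (5.67%). Of the 192, 151 had passed in WT only, 16 in IPT only, 19 in both and 6 in neither. Of the 569 probe sets that rose in WT, 69.4% had a positive change in IPT leaves, 17 rose there and 0 fell. Of the 573 that fell in WT, 80.6% had a negative change in IPT leaves, 52 fell there and 11 rose. The difference passed for 13.5% of these WT rises and 16.2% of the WT falls, a test that contains the WT change that chose them.

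The falls and rises of IPT leaves were followed in WT leaves, whose levels did not enter the IPT change, although their arrays shared in the estimate of the spread behind the calls. Of the 77 falls, 72 had a negative change in WT (93.5%, against 51.5% of all probe sets with a lower value in stressed IPT leaves), 52 fell in WT and 0 rose. Of the 60 rises, 32 had a positive change in WT (53.3%, against 64.7% of all with a higher value), 17 rose in WT and 11 fell. The median WT change was -0.75 for the falls and 0.06 for the rises. The difference of the stress effects, which contains the IPT change that chose these probe sets, passed for 7 of the 77 falls and 28 of the 60 rises. The poly-A bias was larger under stress in both genotypes, and stressed WT replicate 2, with the largest (5.45), was the lowest of its group in 61.0% of the falls against 37.3% of all probe sets with a lower value in stressed IPT leaves. It was the highest in 35% of the rises against 42.6% of all with a higher value. These shares rest on 1 array, and any other difference between it and its group would look alike. The part of labelling in the falls of either genotype was not tested. With the covariate, 18 of 21 falls had a negative change in WT and 2 fell there, and 22 of 35 rises had a positive change and 1 rose there, while the covariate left 40 probe sets passing in WT.

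**Figure D4:**
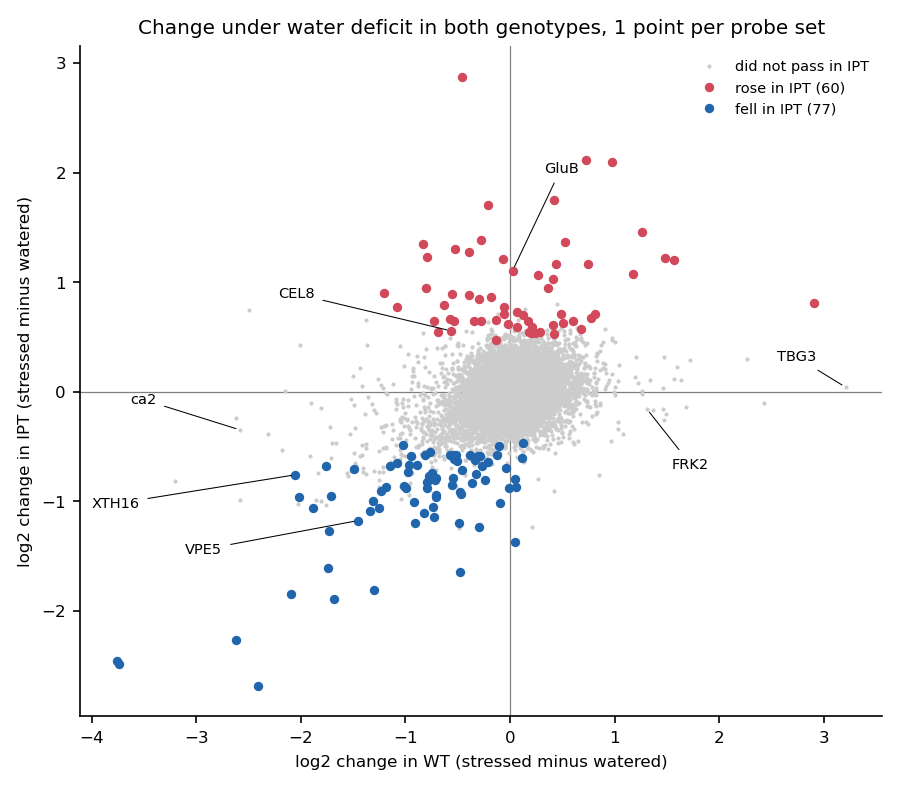
Log2 change under water deficit in IPT leaves (vertical) against WT leaves (horizontal), 1 point per probe set, with the 60 rises and 77 falls of IPT leaves coloured. The falls lie mostly in the lower left, where both genotypes decreased (72 of 77), and the rises lie on both sides of 0 in WT (32 of 60 to the right). TBG3, ca2 and FRK2 lie far from 0 in WT and near 0 in IPT.

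Among the named genes that passed in IPT, 4 differed between the genotypes. The GluB change was 1.10 in IPT and 0.03 in WT (difference 1.08, SE 0.24, limma adjusted p = 0.0241), and WT arrays read 3.04, 2.64 and 2.84 watered and 2.52, 3.13 and 2.94 stressed, with overlap. CEL8 rose in IPT and fell in WT, from 3.80, 3.70 and 3.79 to 2.98, 3.39 and 3.21 (log2 -0.57, difference 1.12, SE 0.17, adjusted p = 0.00104). LOC544153 likewise fell in WT (log2 -0.57, difference 1.24, adjusted p = 0.00197). XTH16 fell in both, by less in IPT than in WT (log2 -0.76 and -2.05, difference 1.29, adjusted p = 0.00686), and its watered level was 2.22 higher in IPT than in WT (log2, adjusted p = 1.36e-07). Its other probe sets gave differences of 0.06 and 0.27 (adjusted p = 0.931 and 0.576), so the called one rests on 1 of 3 probe sets. The one with 0.06 had -0.40 in IPT, which did not pass, and fell in WT (log2 -0.46, limma adjusted p = 0.0436). With the labelling covariate the differences of CEL8 (1.29, adjusted p = 0.00750) and LOC544153 (1.31, adjusted p = 0.0271) passed, and those of GluB (1.24, adjusted p = 0.0865) and XTH16 (0.84, adjusted p = 0.231) did not. The GluB difference was also lost in 6 of the 12 fits without 1 array, with adjusted p up to 0.0786.

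The same probe sets of VPE5 and CRY1A fell in WT too (log2 -1.45 and -0.82), with differences that did not pass (0.28, 95% interval -0.26 to 0.81, and -0.29, adjusted p = 0.670 and 0.711). The other probe sets gave WT changes of 0.33 and -0.14 for VPE5 and 0.44 for CRY1A, none of which passed (limma adjusted p = 0.05001 for CRY1A). Those with 0.33 and 0.44 had all stressed WT arrays above the watered ones. The share of all probe sets that did so in WT is not given here. For PR-5 the change was 0.37 in WT, which did not pass, and the difference of 0.58 (95% interval -0.08 to 1.23, adjusted p = 0.422) did not pass either. ME2 had 0.18 in WT (difference 0.36, 95% interval 0.02 to 0.70, adjusted p = 0.315). LOC543515 rose in WT by 0.60 and in IPT by 0.65 (difference 0.04, adjusted p = 0.945).

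Several genes that changed in WT leaves did not pass in IPT leaves, and their difference was itself called. They were chosen by the smallest p in WT or in the difference, so these calls were largely given by the choice. TBG3, a beta-galactosidase of the cell wall, read 5.51, 5.54 and 5.45 on the watered IPT arrays and 5.56, 5.53 and 5.54 on the stressed ones. The IPT change was 0.04 (95% interval -0.21 to 0.29), against 3.21 in WT (difference -3.17, SE 0.17, adjusted p = 1.92e-08). The carbonic anhydrase ca2, whose product interconverts carbon dioxide and bicarbonate in the chloroplast, read 12.07, 12.10 and 11.91 and then 11.81, 11.77 and 11.78. Its stressed IPT values lay below the watered ones, as in 11.4% of all probe sets, without passing (log2 -0.24, 95% interval -0.61 to 0.14). In WT it fell by 2.62 (difference 2.38, SE 0.25, adjusted p = 4.16e-05). Another probe set of ca2 gave -0.35 in IPT and -2.58 in WT (difference 2.23, adjusted p = 0.00195), and the remaining ones gave -0.06 and 0.01 in IPT and -0.16 and -0.37 in WT (differences of 0.10 and 0.38, adjusted p = 0.844 and 0.480), none of which passed. With the labelling covariate the IPT changes of the first 2 probe sets turned to 0.15 and 0.26 (adjusted p = 0.738 and 0.597).

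Fad7, a plastid desaturase that makes the fatty acid from which jasmonate is formed, read 6.97, 7.25 and 6.97 in watered and 7.49, 7.54 and 7.46 in stressed IPT leaves. All stressed IPT values lay above the watered ones, as in 11.2% of all probe sets, without passing (log2 0.43, 95% interval 0.17 to 0.69, adjusted p = 0.105). The gene fell in WT (-1.37), a difference of 1.80 (SE 0.17, adjusted p = 1.77e-05). FRK2, a fructokinase, which feeds fructose into sugar metabolism, had -0.16 in IPT (95% interval -0.41 to 0.10) and 1.31 in WT (difference -1.46, adjusted p = 0.000112). Its level in watered leaves was already 2.66 higher in IPT than in WT (log2, adjusted p = 2.71e-10). The bZIP factor abz1 had -0.16 in IPT (95% interval -0.49 to 0.16) and 1.36 in WT (difference -1.53, adjusted p = 0.000699). LOC544312 and LOC543605 had 0.08 and 0.11 in IPT and 1.22 and 1.34 in WT (differences of -1.14 and -1.23, adjusted p = 0.00119 and 0.00195).

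The differences of TBG3, Fad7, FRK2, abz1, LOC544312, LOC543605 and the first 2 ca2 probe sets passed in all 12 fits without 1 array and with the labelling covariate. Under the covariate they were -3.30 for TBG3, 1.69 and 1.15 for ca2, 1.59 for Fad7 and -1.30 for FRK2. CAB4 also differed: it fell in WT (log2 -0.63) with a difference of 0.71 (SE 0.14, adjusted p = 0.0134), which did not pass with the covariate (0.73, adjusted p = 0.0865) or under quantile normalization. PTI4, which fell in WT (-0.62), had a difference of 1.04 (adjusted p = 0.0244), which passed in 5 of the 12 fits without 1 array and neither with the covariate (adjusted p = 0.218) nor with the replicate number as a block.

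**Figure D5:**
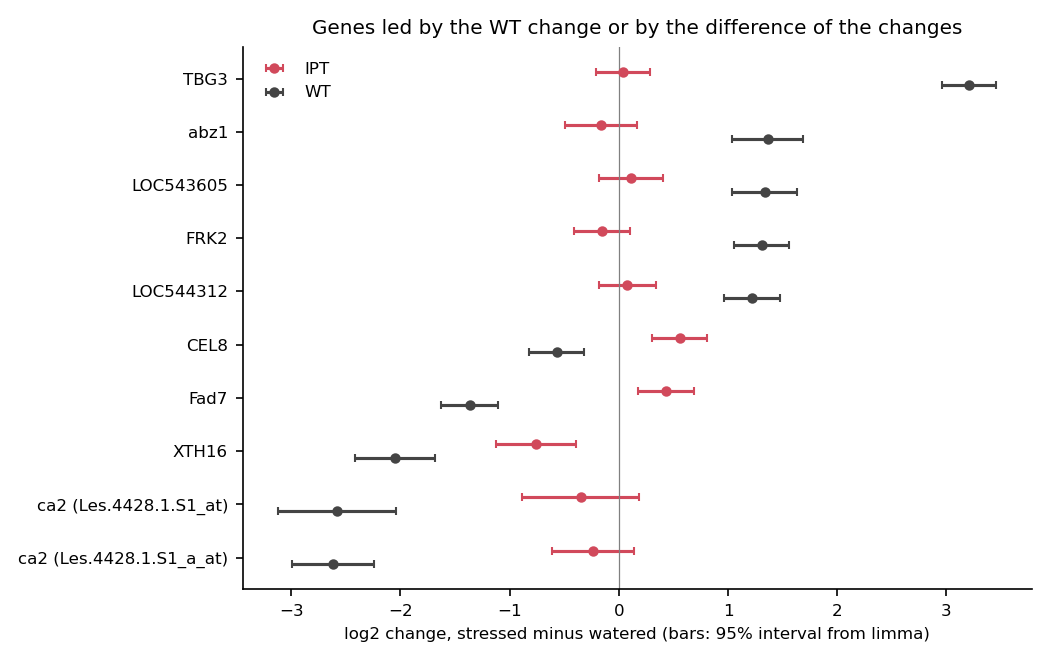
Log2 change under water deficit in IPT leaves (red) and WT leaves (dark) with 95% intervals from limma, for the named probe sets with the smallest p in WT or in the difference between genotypes. The IPT intervals of TBG3, abz1, FRK2, LOC543605, LOC544312 and the ca2 probe sets shown include 0, while no WT interval does. That no WT interval includes 0 was largely given by the choice of probe sets.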

How the data were processed

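The authors' deposited log2 values come from RMA, as credited per the submitters' processing notes, a method that removes background, brings all arrays to 1 distribution and summarises each probe set. For its settings, nothing is given in the sources used here. No scanner file was analysed here, and how far a probe set stood above background is therefore unknown. Precision is limited by the number of arrays.

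Without its 108 control probe sets, the table holds 10101, all of them tested, dim ones included. A model with 4 group means on all 12 arrays was fitted in limma 3.58.1 in R 4.3.3 (lmFit and eBayes, 8 residual and 7.99 prior degrees of freedom). Tests are two-sided, and p-values were adjusted by Benjamini-Hochberg over all probe sets of a comparison. Fold changes are given as sizes. List values use 1 probe set per gene, that of the highest mean.

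The members and lists were chosen with earlier results of these data known. Named genes are all named probe sets that passed in IPT leaves, the 10 largest rises and falls, the 2 members of each list with the smallest p, the 8 with the smallest p in WT and in the difference, and 2 rises and 2 falls without a symbol. The 25 lists are symbol patterns, of which 22 had at least 3 members. From these, 8 symbols that the patterns caught but that name other genes were removed (HPL and LHP1 from cytokinin, CYP1, PTOX, LHA1, LHA2, MDHAR and PRO1, the last 2 kept in the list of their own pathway, as were HPL and PTOX). The steps were tested on simulated data. Alternatives were a fit to the IPT arrays alone, median centring, quantile normalization, brighter probe sets, array weights, trend and robust moderation, the replicate block, the poly-A 3'/5' bias as a covariate and leaving out 1 array at a time.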

Additional observations from a re-analysis of the deposited data

Results flagged for a closer look

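All results given here are differences between the genotypes in the change under water deficit (log2, IPT minus WT) that passed limma's test of the difference. The change was higher in IPT for Fad7 (1.80), XTH16 (1.29), LOC544153 (1.24), CEL8 (1.12), GluB (1.08), PTI4 (1.04), CAB4 (0.71) and 2 probe sets of ca2 (2.38 and 2.23). The other probe sets of ca2 had differences of 0.10 and 0.38, which did not pass. The change was also higher in IPT for the unnamed probe sets LesAffx.11323.1.A1_at (1.40) and LesAffx.65124.1.S1_at (1.34). It was lower in IPT for TBG3 (-3.17), abz1 (-1.53), FRK2 (-1.46), LOC543605 (-1.23), LOC544312 (-1.14) and LOC543955 (-0.89). The difference of LOC543955 passed in 3 of the 12 fits without 1 array, and failed under median centring, quantile normalization, array weights, the replicate block and the labelling covariate. Another probe set of LOC543955 gave a difference of -0.04 (limma adjusted p = 0.967), which did not pass. In all, 192 probe sets had stress effects that differed between the genotypes.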

How the results depend on the processing

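The number of probe sets that passed in IPT leaves, 137, was 254 with array weights, 228 with an intensity trend and robust moderation, 56 with the labelling covariate and between 54 and 244 when 1 array was left out. Leaving out watered replicate 2 gave 54, watered replicate 1 gave 62, either stressed replicate 1 or stressed replicate 2 gave 81, and stressed WT replicate 2 gave 244. The named probe sets that passed, 11, were 19 with array weights, 19 with the trend and robust moderation, 2 with the covariate and between 2 and 16 without 1 array (2 without watered replicate 1). The 192 differences between genotypes were 300 among brighter probe sets only, 332 with the trend and robust moderation and 105 with the covariate. The 1142 probe sets of WT, whose alternatives were added after seeing the data, were 40 with the covariate and 748 without stressed WT replicate 2. The causes were not tested. Of the 1327 pairs of a named IPT result and an alternative, 1244 kept direction and side of the threshold. Of the rest, 61 lost a call, 19 gained one and 3 were reversed. All 3 reversals came with the covariate, and none of them was a call. They were MDHAR (from -0.54 to 0.0087) and 2 probe sets of ca2 (to 0.15 and 0.26). The uncalled genotype difference of VPE5 (0.28) likewise turned to -0.12 with the covariate.

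With the replicate number as a block, 110 probe sets passed in IPT (52 higher, 58 lower) and 165 in the difference. Same-numbered watered and stressed IPT arrays had correlations of deviations of 0.033, 0.073 and 0.038, so the numbers were not taken as pairs, although all 3 watered arrays correlated best with their own number.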

Other observations

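The 11 probe sets that rose in stressed IPT leaves and fell in stressed WT leaves included CEL8 and LOC544153, and the other 9 carry no gene symbol. The one with the largest IPT rise, LesAffx.51226.1.A1_at, had a log2 change of 1.35 in IPT and -0.83 in WT (adjusted p of the difference 1.93e-06, limma). LesAffx.71035.1.S1_at had the largest WT fall of the 11 (log2 0.90 in IPT and -1.21 in WT, adjusted p 1.93e-06). Both were named after their values were seen. No probe set fell in IPT leaves and rose in WT leaves.

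Probe sets with a gene symbol had a higher value under stress in IPT leaves in 484 of 802 genes (60.3%), against 50.2% of all probe sets, and a median log2 change of 0.05 against 0.00.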
